A study of Mus musculus with 8 samples.

Results

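The genes described here were the 10 rows of a table of mouse tissue expression whose symbols belong to pulmonary surfactant and to the alveolar type 2 cell, out of 52195 genes in the table. They were Sftpa1, Sftpb, Sftpc, Sftpd, Abca3, Lamp3, Napsa, Lpcat1, Slc34a2 and Etv5, chosen by name. All 10 were in the table, and all 10 passed the filter on low values (an FPKM reaching 1 in 2 libraries), of which 1, Lamp3, passed through the lung libraries alone. FPKM, fragments per kilobase of transcript, scaled to library size, corrects for gene length, so levels of different genes can be set side by side.

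The study sequenced polyadenylated RNA of whole lung, kidney, liver and small intestine to supply bulk profiles of normal tissue for a method that estimates cell type composition. The mice were of the strain C57BL/6, an inbred laboratory strain (C57BL/6J and male by the methods of the study), 6 to 10 weeks old and with no treatment named. Each of the 4 tissues had 2 libraries, 8 in all, and by the text of the study the libraries of a tissue came from separate mice. Its methods say that all 4 tissues were taken from a mouse, so libraries of different tissues may share one, but not which libraries do, and the tests treated the 8 libraries as independent. The depth used to scale each library, recovered from the steps of the values, ranged from 9164187 to 21444675. The reads recovered on genes ranged from 9399646 to 22132986 per library. At these depths a gene of the length of Sftpd would show 3 reads at an FPKM between 0.0579 and 0.135. The RNA was that of ground whole tissue, in which fewer cells of a type and less RNA per cell cannot be told apart.

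Alveolar type 2 cells are the cuboidal epithelial cells of the alveolus that make surfactant, the film of phospholipid and protein that lowers surface tension and keeps the air spaces open during expiration. The lipid is assembled by acyltransferases such as Lpcat1, pumped by the transporter Abca3 into lysosome-related organelles called lamellar bodies, and secreted together with the small hydrophobic proteins Sftpb and Sftpc. Sftpa1 and Sftpd encode collectins, secreted lectins of innate defence. The homeodomain factor Nkx2-1, with forkhead and C/EBP factors, is known to act at promoters of surfactant genes.

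The bases before the transcription start are shown for 4 members, because 3 of them (Sftpb, Sftpa1 and Lamp3) were close to the limit of detection or at trace levels outside lung, while the fourth, Abca3, was at similar levels in kidney and lung. The sequences are those of RefSeq on GRCm38.p6, read 5′ to 3′ on the strand of the gene and ending where the gene begins in GENCODE, which left out the last 6 bases of the window of Sftpa1, 10 of Lamp3 and 73 of Abca3, and capitals mark matches to the motifs listed after them. The Sftpb stretch is chr6:72304360-72304609 on the plus strand, that of Sftpa1 is chr14:41131538-41131781 on the plus strand, that of Lamp3 is chr16:19706376-19706615 on the minus strand, and that of Abca3 is chr17:24351773-24351949 on the plus strand.
Sftpb: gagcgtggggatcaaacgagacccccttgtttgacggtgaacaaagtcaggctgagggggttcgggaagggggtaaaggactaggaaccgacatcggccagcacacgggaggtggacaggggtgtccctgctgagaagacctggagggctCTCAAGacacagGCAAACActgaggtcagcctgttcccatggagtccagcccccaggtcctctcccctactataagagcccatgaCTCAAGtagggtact
Sftpa1: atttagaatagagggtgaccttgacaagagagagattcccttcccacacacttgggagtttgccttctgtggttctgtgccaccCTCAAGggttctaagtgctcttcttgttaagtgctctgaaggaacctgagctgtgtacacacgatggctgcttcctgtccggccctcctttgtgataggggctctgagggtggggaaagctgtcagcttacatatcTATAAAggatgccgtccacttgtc
Lamp3: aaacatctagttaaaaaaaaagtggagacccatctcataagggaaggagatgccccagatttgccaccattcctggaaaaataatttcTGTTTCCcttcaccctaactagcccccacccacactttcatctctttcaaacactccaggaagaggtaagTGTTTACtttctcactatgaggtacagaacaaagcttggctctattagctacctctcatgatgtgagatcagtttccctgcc
Abca3: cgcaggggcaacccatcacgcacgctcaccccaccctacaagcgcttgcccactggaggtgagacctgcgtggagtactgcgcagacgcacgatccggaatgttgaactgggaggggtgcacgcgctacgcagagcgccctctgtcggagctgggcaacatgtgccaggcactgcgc

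The motifs searched on both strands were the NKX2-1 core CTCAAG, the forkhead motif TGTTTNC, the C/EBP motif TTGCNNAA, the ETS motif CCGGAAGT and the TATA box TATAAA, none of which overlapped another in the members. RefSeq windows of 250 bases before the start were at hand for 7 of the 10 members, Etv5 with 2 starts, and for 32851 starts of all genes. Sftpc, Sftpd and Napsa had no entry. CTCAAG stood at 2 places in the Sftpb window, from base -100 to -95 and from -15 to -10 counted from the RefSeq start, and at 1 place in the Sftpa1 window, from -166 to -161. Of all windows, 13.3% held it. TATAAA was found in the Sftpa1 window alone among the members, from -30 to -25, against 12.4% of all windows.

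The forkhead motif was found in Sftpb, from -88 to -82, at 2 places in Lamp3 and in 1 of the Etv5 windows, against 17.8% of all windows. The C/EBP motif was found in the Slc34a2 window from -48 to -41, against 9.56% of all, and the ETS motif in no member and in 2.88% of all windows. That Slc34a2 window, chr5:53049103-53049352, lies inside the gene as annotated in GENCODE, which begins at 53038081. The windows also differed in CpG content. The ratio of CpG dinucleotides observed to those that base composition would give was 0 in Lamp3, 0.192 in Sftpa1 and 0.332 in Sftpb, but 0.696 in Lpcat1, 0.736 in Abca3, 0.897 and 0.780 in the Etv5 windows and 0.943 in Slc34a2. The median of all windows was 0.373, and 34.0% of them were over 0.6. These matches are a description of letters, not of factor binding.

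Across the 8 libraries the members fell into a set that was abundant in lung and low elsewhere and a set that was shared with a second organ. The surfactant protein genes, Lamp3 and Lpcat1 were the first, Napsa and Abca3 were shared with kidney, and Etv5 and Slc34a2 had a lower second level in kidney and in small intestine, respectively. In the lung libraries the 10 genes together took 3.14% ± 0.307 (SD, n = 2) of the summed FPKM. The share was 0.0698% ± 0.000737 in kidney, 0.00401% ± 0.000308 in liver and 0.00367% ± 0.00229 in small intestine, where the libraries were at 0.00204% and 0.00529%. The 4 surfactant protein genes made up 97.0% and 96.7% of the members' sum in the lung libraries, and 1.17% and 2.82% of it in kidney, where Napsa was most of the sum.

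**Figure D1:**
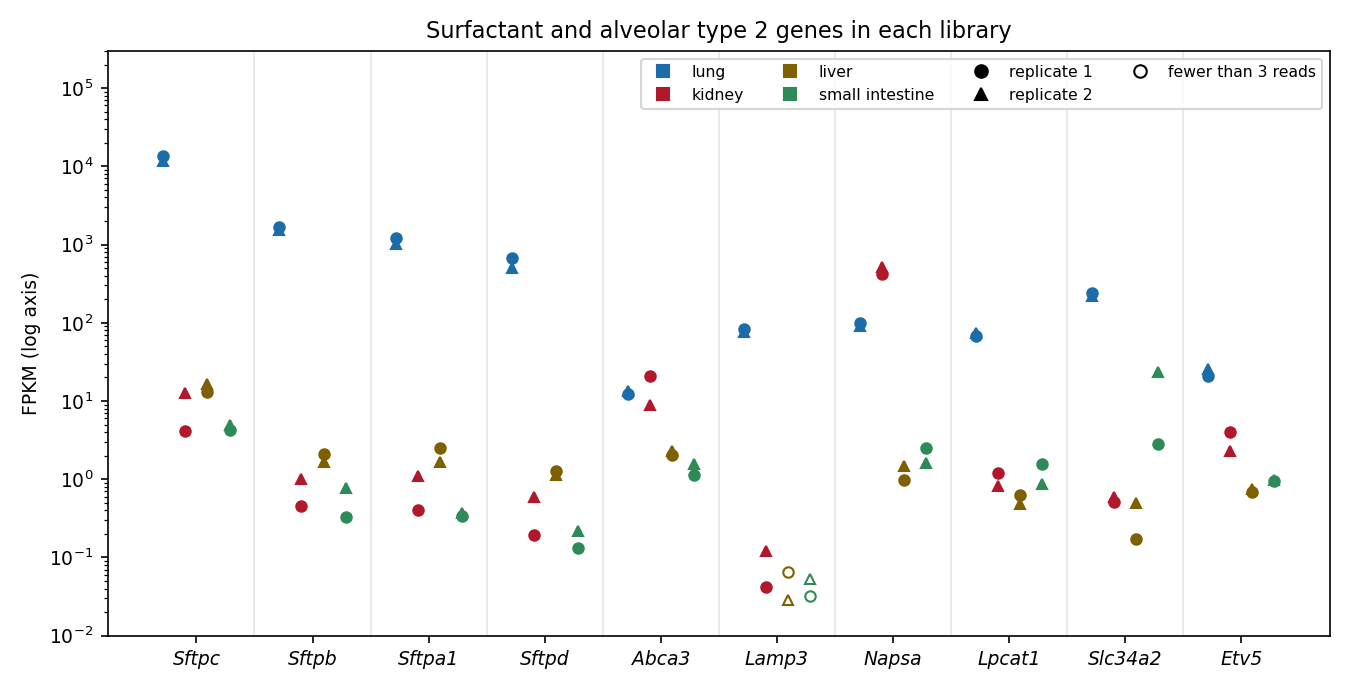
FPKM (log axis) of each member in each library, coloured by tissue, with circles for replicate 1, triangles for replicate 2 and open symbols where fewer than 3 reads were counted. The lung points of Sftpc lie at 13439.5 and 11569, those of Napsa at 98.8 and 90.8 lie under the kidney points at 416 and 518, and Lamp3 is open in liver and small intestine.

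Sftpc, on chromosome 14 from 70520949 to 70524081 of GRCm38, encodes surfactant protein C, a membrane-spanning lipopeptide made by type 2 cells. Its FPKM was 13439.5 and 11569 in the lung libraries, 4.19 and 12.7 in kidney, 13.2 and 16.4 in liver, with 4.24 and 4.87 in small intestine. It ranked 5 among all genes in both lung libraries and alone took 2.58% and 2.23% of their summed FPKM. Both lung libraries lay far above the other 6, the highest of which was 0.131 percent of the lung mean.

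Sftpb, on chromosome 6 from 72304610 to 72314371, encodes surfactant protein B, the hydrophobic protein needed for the surface film and for lamellar bodies. Its FPKM was 1655 and 1535 in lung, 0.450 and 0.998 in kidney, 2.11 and 1.67 in liver, with 0.326 and 0.763 in small intestine. The lung values were the 28th and 27th highest of their libraries. Outside lung these levels rested on between 6 and 38 reads.

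Sftpa1 and Sftpd lie near each other on chromosome 14, from 41131782 to 41136452 and from 41172214 to 41185149. Sftpa1 was at 1202 and 1012 in lung, 0.408 and 1.11 in kidney, 2.52 and 1.66 in liver, with 0.336 and 0.371 in small intestine. Sftpd was at 676 and 503 in lung, 0.193 and 0.598 in kidney, 1.26 and 1.12 in liver, with 0.133 and 0.219 in small intestine. In small intestine replicate 1 the Sftpd value was 3 reads.

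Each library was then compared by limma on log2(FPKM + 1) with the 4 tissues as groups, and a gene was called where the adjusted p (Benjamini-Hochberg over 16328 genes) was under 0.05 and the difference over 1 in size. The lung libraries were set against the averaged other 3 tissues and against each of them, to ask how far these genes stand apart in lung and where another organ comes near it. Against the mean of the others, all 10 members were called higher in lung, where 40.7% of all genes tested were called higher and 8.26% lower. Lamp3 passed the filter through the lung libraries alone, as did 1715 of all genes tested, and such a gene had to differ. The members' median difference was 6.34 on the log2 scale against 0.82 for all genes. That shift of all genes depended on the scaling between libraries: 6652 genes were called higher and 1349 lower as deposited, but 2387 higher and 2616 lower after median-of-ratios scaling, which moved the median of all genes to -0.02.

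For the surfactant protein genes the lung excess was 10.43 for Sftpc (standard error 0.32, adjusted p = 3.88e-07), 9.67 for Sftpb (0.18, 1.62e-07), 9.16 for Sftpa1 (0.20, 1.85e-07) and 8.58 for Sftpd (0.18, 1.73e-07). All 4 were called higher against each single tissue as well. The ratio of the lung mean FPKM to that of another tissue was lowest against liver, where it was 845 for Sftpc, 844 for Sftpb, 530 for Sftpa1 and 494 for Sftpd. Against small intestine it was 2747, 2930, 3132 and 3350 in the same order. The Sftpb ratio there is rough, because its small intestine libraries, at 0.326 and 0.763, differed 2.34-fold. These differences of log2(FPKM + 1) understate the change of genes whose low values are near 1, and for the same genes they ran from 7.51 for Sftpd to 11.20 for Sftpc over the alternative settings.

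**Figure D2:**
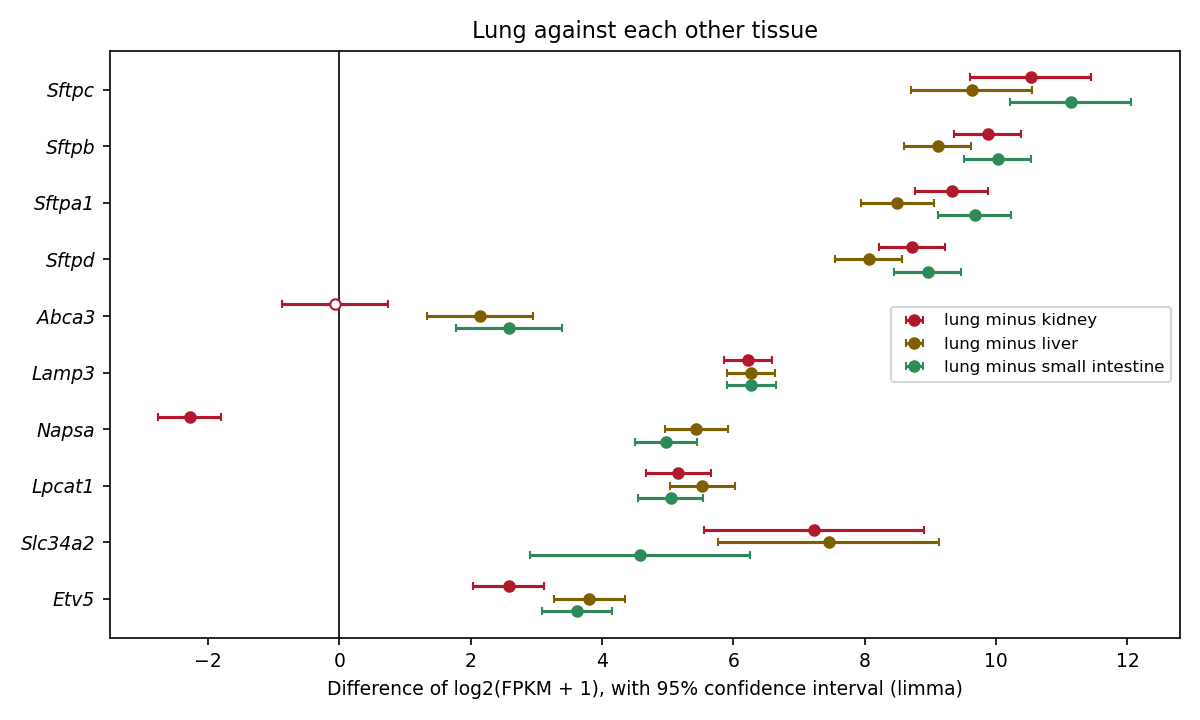
Difference of log2(FPKM + 1) between lung and each other tissue for the 10 members, as points with 95% confidence intervals from limma, filled where called. Napsa lies at -2.28 against kidney, the open Abca3 point at -0.07 against kidney spans 0, and all other points lie to the right of 0.

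The lamellar body genes did not move as a block. Lamp3, on chromosome 16 from 19653378 to 19706375, encodes a lysosome-associated membrane glycoprotein of lamellar bodies that is also a marker of mature dendritic cells. It was at 82.4 and 77.1 in lung and at 0.0418 and 0.121 in kidney, which is about 3 and 7 reads. In liver it was at 0.0653 and 0.0290 and in small intestine at 0.0320 and 0.0528, in each case fewer than 3 reads, so that it was not detectable at this depth. Lung exceeded the mean of the others by 6.26, a value that depends on the pseudocount and ran from 5.35 to 10.28 over the alternative settings. The mature dendritic cell markers Ccr7, Fscn1, Ccl22 and Cacnb3 were also called higher in lung, 4 of 4 tested against 40.7% of all genes. Ccr7 passed the filter through lung alone, and the Cacnb3 call was lost after quantile normalization. Il12b was below the filter. With it their summed FPKM was between 39.6 and 42.8 in lung and between 1.19 and 6.30 elsewhere. Their part in the Lamp3 level was not tested.

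Napsa, on chromosome 7 from 44572380 to 44586862, encodes napsin A, an aspartic protease that takes part in the maturation of surfactant protein B and is also known from kidney tubules. Its FPKM was 98.8 and 90.8 in lung, 416 and 518 in kidney, 0.985 and 1.46 in liver, with 2.53 and 1.63 in small intestine. Both kidney libraries lay above both lung libraries, and the difference of lung minus kidney was -2.28 (standard error 0.20, adjusted p = 3.83e-05). Napsa was the single member called lower in lung than in another tissue, where 8.87% of all genes tested were called lower in lung than in kidney. Lung was higher than liver by 5.44 and than small intestine by 4.97. Of the exon length of Napsa, 18.9% is shared with the antisense gene Gm15396, which was at 0.0856 in kidney replicate 1 and listed at 0 in the other 7 libraries. Whether counting used strand is not given in the sources used here.

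Abca3, on chromosome 17 from 24351950 to 24410201, encodes the ABC transporter that loads phospholipid into lamellar bodies. It was at 12.4 and 13.5 in lung, 21.0 and 8.81 in kidney, 2.02 and 2.30 in liver, with 1.13 and 1.56 in small intestine. The kidney libraries stood on either side of the lung libraries. Lung minus kidney was -0.07 (95% interval -0.88 to 0.73, adjusted p = 0.866), and the direction turned with the setting: it was 0.34 with every library at the same summed FPKM and 0.51 without kidney replicate 1, but -1.08 (adjusted p = 0.00625) after median-of-ratios scaling, where kidney was called higher.

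Against the mean of the other tissues Abca3 was called higher in lung by 1.55 (standard error 0.28, adjusted p = 0.00141). This call was lost after median-of-ratios scaling, at 0.51 (adjusted p = 0.0547), and after quantile normalization, at 0.68. Of its exon length, 9.75% is shared with the antisense transcript D330041H03Rik, whose highest FPKM in any library was 0.872. Among the members, Abca3 had the lowest level in lung and ranked 4280 and 4083 in the lung libraries.

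Lpcat1, on chromosome 13 from 73467197 to 73516422, encodes the acyltransferase that makes the dipalmitoyl phosphatidylcholine of surfactant. It was at 67.7 and 73.9 in lung, 1.21 and 0.823 in kidney, 0.636 and 0.481 in liver, with 1.55 and 0.858 in small intestine. Lung exceeded the mean of the others by 5.24 (standard error 0.17, adjusted p = 4.59e-07). The remaining tissues were not called different from each other. Kidney minus liver, for instance, was 0.37 with an interval from -0.13 to 0.86.

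Slc34a2, on chromosome 5 from 53038081 to 53071664, encodes the sodium-phosphate cotransporter of the type 2 cell membrane, which is also found at the brush border of the intestine. It was at 242 and 221 in lung, 0.512 and 0.588 in kidney, 0.174 and 0.502 in liver, with 2.81 and 23.6 in small intestine. The small intestine libraries differed 8.40-fold from each other, yet both lay above all kidney and liver libraries and below both lung libraries. Lung exceeded small intestine by 4.58 (standard error 0.72, adjusted p = 0.000929), and by 3.24 or 5.93 when small intestine replicate 1 or 2 was left out.

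Etv5, on chromosome 16 from 22381309 to 22439719, encodes an ETS transcription factor that acts below FGF and Ras signalling in type 2 cells. It was at 20.8 and 25.7 in lung, 3.96 and 2.31 in kidney, 0.691 and 0.755 in liver, with 0.937 and 0.990 in small intestine. Lung exceeded the mean of the others by 3.33 (standard error 0.19, adjusted p = 3.19e-06) and kidney, the next tissue, by 2.58 (0.23, 3.8e-05).

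By single tissue, 8 members were called higher in lung than in kidney (41.4% of all genes tested were), 1 lower and 1 neither way. All 10 were called higher than in liver (55.5% of all genes) and all 10 higher than in small intestine (30.6%). The Abca3 call against liver (2.14) was lost after median-of-ratios scaling (0.78) and quantile normalization (0.93).

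Between the other tissues, 3 or 4 of the 10 members were called in each comparison. Napsa, Abca3 and Etv5 were called higher in kidney than in liver, by 7.72, 2.22 and 1.23, where 16.2% of all genes tested were called. The same 3 were called higher in kidney than in small intestine, by 7.25, 2.65 and 1.04, against 10.7% of all genes. The Etv5 calls were lost without kidney replicate 1, and each also under 1 other scaling. Slc34a2 was called higher in small intestine than in kidney, by 2.65 (standard error 0.72, adjusted p = 0.0185), where 18.8% of all genes were called that way. This call was lost in 5 of 16 alternatives, 4 of which left out a lung or kidney library. The kidney minus small intestine difference of -2.65 became -3.99 without small intestine replicate 1 and -1.30 without replicate 2, both called.

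Slc34a2 was also called higher in small intestine than in liver, by 2.87 (adjusted p = 0.0109), and 28.3% of all genes were. The difference was 4.21 without small intestine replicate 1 and 1.52 without replicate 2. Sftpa1 and Sftpc were called lower in small intestine than in liver, by -1.18 and -1.50 (adjusted p = 0.00411 and 0.0133), against 7.89% of all genes. Without liver replicate 1 none of these 3 calls held, and the Sftpc call was lost without any 1 of the liver or small intestine libraries. In the order of levels, the surfactant protein genes ran from lung to liver, kidney and small intestine, and the steps between neighbours below lung were not called for any of them. With a pseudocount of 0.1 or median-of-ratios scaling, Sftpa1, Sftpb and Sftpd were called lower in kidney than in liver, where 8.94% and 10.6% of all genes were, against 6.90% without these changes.

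The traces of the surfactant protein genes outside lung were of a like size within a library. As a percent of the lung mean, the 4 genes lay between 0.0282 and 0.0368 in kidney replicate 1 and between 0.0626 and 0.101 in kidney replicate 2. In liver they lay between 0.105 and 0.228 in replicate 1 and between 0.105 and 0.190 in replicate 2. In small intestine the ranges were 0.0204 to 0.0339 and 0.0335 to 0.0478. Liver was highest and kidney replicate 2 was above kidney replicate 1 for all 4.

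Scgb1a1, the secreted protein of airway club cells, was chosen, after its values were seen, to set beside them as an abundant lung gene of another cell type. Its percents of the lung mean were 0.0447 and 0.101 in kidney, 0.110 and 0.115 in liver, with 0.0359 and 0.0521 in small intestine. Cxcl15, a chemokine of lung epithelium, was at 0.0556 and 0.0885, 0.0929 and 0.173, and 0.0818 and 0.105 percent. The values of these 6 genes stood between 0.0204 and 0.228 percent in all 6 libraries. Markers of the other lung epithelial cells did so in part. Of 6 club cell markers, 3 (Scgb1a1, Scgb3a2 and Cbr2) lay within that range in every library, and of 8 type 1 markers 2 did (Ager and Rtkn2). Rtkn2 was at 0.0698 FPKM or less outside lung, near the limit of detection, so its percents are rough. Of the 15 other type 2 genes, the list that holds Cxcl15, 2 did (Cxcl15 and Chil1), and that list ran from 0 for Egfl6 in small intestine replicate 1 and Acoxl in liver replicate 2 to 1132 percent for Lyz1, a lysozyme, in small intestine replicate 2. The club cell markers ran from 0 for Bpifa1 in kidney replicate 1 to 56.8 percent for Cyp2f2 in liver replicate 1, and the type 1 markers up to 39.7 percent for Clic5 in small intestine replicate 2. What gave these reads was not tested.

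Lamp3 was at 0.0525 and 0.152 percent in kidney and, with fewer than 3 reads in each liver and small intestine library, gave no percent to read there. The remaining 5 members were above it in at least 1 tissue. Lpcat1 was between 0.679 and 2.18 percent of its lung mean, Etv5 between 2.97 and 17.0 percent, and Abca3 at 8.70 percent or more in every library. Slc34a2 was at 1.22 and 10.2 percent in small intestine, but between 0.0752 and 0.254 percent in kidney and liver. Napsa was at 439 and 546 percent in kidney and at 2.67 percent or less in liver and small intestine.

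**Figure D3:**
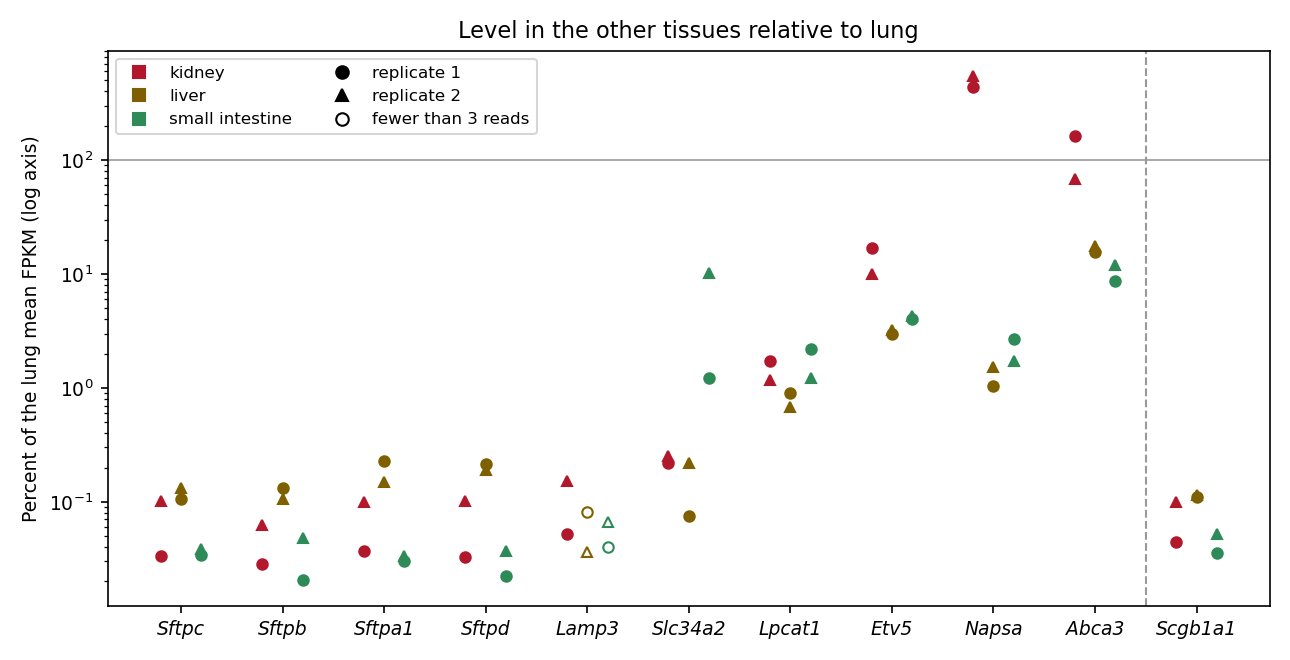
Level of each member, and of the club cell gene Scgb1a1 to the right of the dashed line, in the kidney, liver and small intestine libraries as a percent of the lung mean FPKM (log axis, with a line at 100 percent). Open symbols mark fewer than 3 reads. The surfactant protein genes and Scgb1a1 lie between 0.0204 and 0.228 percent, Lamp3 is open in liver and small intestine, and Napsa and Abca3 in kidney lie near or above 100 percent.

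The spread between the libraries of a tissue was compared with that of all genes tested. The median absolute difference of log2(FPKM + 1) between replicates was 0.13 for the members and 0.15 for all genes in lung, 0.44 and 0.30 in kidney, 0.18 and 0.14 in liver, with 0.21 and 0.18 in small intestine. In lung the 4 surfactant protein genes were lower in replicate 2, at 0.745 to 0.927 of replicate 1. Lamp3, Napsa and Slc34a2 were lower too, at 0.911 to 0.935, while Abca3, Lpcat1 and Etv5 were higher, at 1.09 to 1.23. With 2 libraries per tissue these differences allow no test.

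On the log2(FPKM + 1) scale the largest differences were those of Slc34a2 in small intestine, 2.69, and in kidney those of Sftpc (1.40) and Abca3 (-1.16). The order depends on the pseudocount. As a ratio of FPKM, kidney replicate 2 over replicate 1 was 3.10 for Sftpd, 3.02 for Sftpc and 2.89 for Lamp3. It was 2.73 for Sftpa1 and 0.420 for Abca3. Beside Slc34a2, 6 of 6 genes known from ileum were higher in small intestine replicate 2, among them Fabp6, the ileal bile acid binding protein, at 0.223 and 25.4. The 6 genes known from duodenum were all lower there, among them Muc6, a mucin of Brunner glands, at 21.1 and 0.0660. Beside Abca3, the kidney transporters Slc12a1 and Slc12a3 were at 140 and 84.0 in kidney replicate 1 and at 55.5 and 17.7 in replicate 2. The endocytic receptors Lrp2 and Cubn were at 65.5 and 14.7 in replicate 1 and at 26.1 and 5.90 in replicate 2. Of 9 kidney tubule genes set beside Abca3, 7 were lower and 2 higher in replicate 2. The 2 were Miox, at 982 and 1175, and Aqp2, at 80.1 and 120. The median of all genes in kidney was -0.22, also lower in replicate 2. Of all genes tested, 5.84% differed by more than 1 between the kidney libraries. These 4 lists of intestinal and kidney genes were chosen after the values were seen, and their part in the members' differences was not tested.

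**Figure D4:**
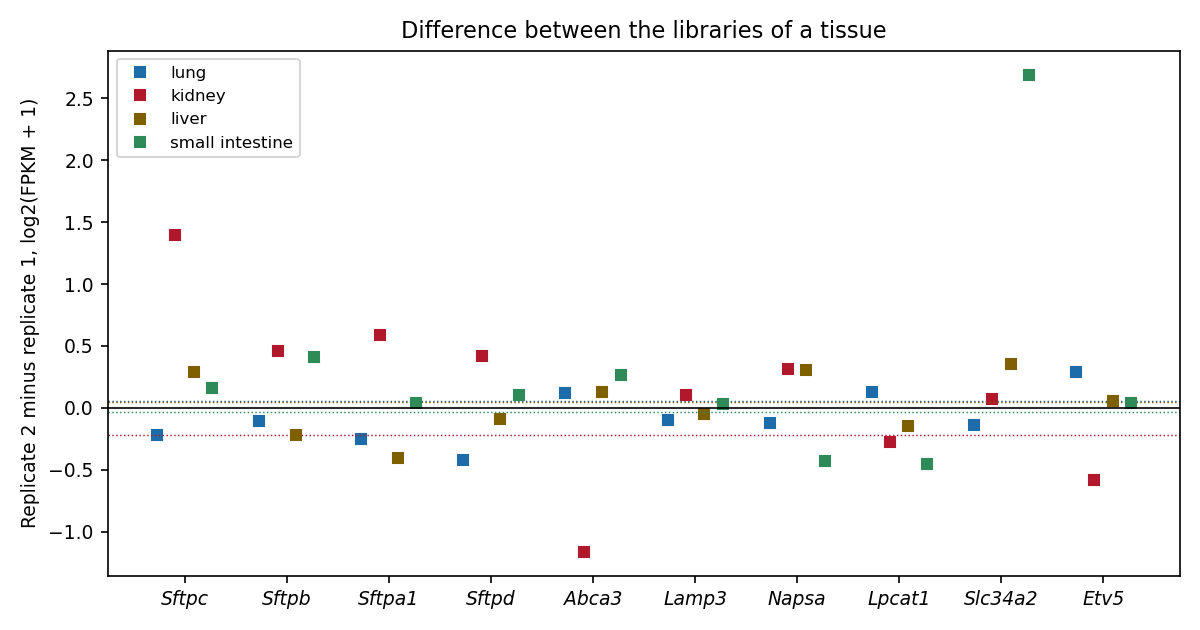
Replicate 2 minus replicate 1 on the log2(FPKM + 1) scale for each member in each tissue, with dotted lines at the median of all genes tested for that tissue. Slc34a2 in small intestine stands at 2.69, Sftpc in kidney at 1.40 and Abca3 in kidney at -1.16, and most other points lie within 0.5 of 0.

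The wider surfactant system was read from lists of named genes, again as lung against the mean of the other tissues. Of 15 other genes known from type 2 cells, 14 were called higher in lung, 0 lower, and 13 were after median-of-ratios scaling, against 40.7% and 14.6% of all genes. Cxcl15, Chil1, Acoxl and Cldn18 of this list passed the filter through lung alone. Lyz2, a lysozyme, was at 5269 and 4833 in lung and at 103 or less elsewhere. Cxcl15 was at 585 and 520 in lung and at 0.956 or less elsewhere. Chil1, a chitinase-like protein, was at 310 and 268 in lung. Some of the list were shared with another organ as Napsa was. Hc, complement component 5, was at 58.4 and 60.0 in lung and 54.0 and 63.0 in liver. Lyz1 was at 299 and 288 in lung but 1910 and 3323 in small intestine, where Paneth cells are known to make it. S100g was not called (0.80, adjusted p = 0.0899), with 373 and 430 in kidney. Kcnj15 was called by 1.44, with 15.1 and 11.5 in lung but 145 and 60.1 in kidney. Its call was lost after median-of-ratios scaling and after quantile normalization. Lyz1 and Kcnj15 were thus counted as higher in lung although another tissue stood above it.

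The transcription factor Nkx2-1 was at 52.9 and 58.6 in lung and at 0.142 or less elsewhere, so that it passed the filter through lung alone. Of 8 factors of the distal lung epithelium, 7 were called higher in lung, against 40.7% of all genes. After median-of-ratios scaling 3 were (14.6% of all genes), and after quantile normalization 3 were called higher and 1 lower, as were 15.6% and 15.6% of all genes. Foxa1 (2.49) and Foxa2 (2.71) were among those called, while Cebpa (1.10) turned to -0.05 after median-of-ratios scaling, and Sox9 (-0.57) was not called. The Cebpa FPKM was 40.8 and 48.1 in lung and 67.1 and 75.3 in liver. Foxa2 was at 16.6 and 18.3 in lung and 6.68 and 6.74 in liver. Calls against the mean of the others did not make lung the highest tissue: Gata6 was at 10.2 and 11.1 in lung but 23.6 and 26.7 in small intestine. Klf5 was at 7.44 and 6.58 in lung but 35.4 and 45.4 in small intestine, and its call was lost in 5 alternatives.

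Of the ligands, the receptor, the targets and the related ETS factors of the FGF receptor 2 pathway, 6 of 7 genes tested were called higher in lung (40.7% of all genes). After median-of-ratios scaling 3 were (14.6% of all genes), namely Spry2 and the pair Fgf7 and Fgf10, which passed the filter through lung alone. The ligand Fgf7 was at 7.60 and 6.34 in lung and at 0.598 or less elsewhere, and the ligand Fgf10 at 2.78 and 3.59 against 0.154 or less. The receptor Fgfr2 was at 7.53 and 8.31 in lung and at 1.87 or less elsewhere, and its call was lost after median-of-ratios scaling (a log2 difference of 0.99, under the fold limit) and after quantile normalization. The feedback inhibitor Spry2 was at 9.03 and 9.14 in lung and at 2.71 or less elsewhere. Etv1 was not called, and Etv4, below the filter, was at 0.447 or less in every library.

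The lipid and processing genes gave counts of higher genes near the background of 40.7% (8.26% were called lower). Of 16 genes of phospholipid and fatty acid synthesis, 5 were called higher in lung, 3 lower and 8 neither way. The 5 were Fasn, Scd1, Elovl1, Pla2g1b and Prdx6, of which Elovl1 was not called after median-of-ratios scaling. Scd1, a fatty acid desaturase, was at 271 and 198 in lung but 496 and 241 in liver, and Pla2g1b, a secreted phospholipase, at 18.1 and 12.2 in lung and 25.3 and 8.55 in small intestine. Prdx6, a peroxiredoxin with phospholipase activity, was at 207 and 203 in lung and at 77.0 or less elsewhere. The 3 called lower were Chpt1 (-1.70), Elovl6 (-1.73) and Agpat2 (-1.34), and Pcyt1a, the rate-limiting enzyme of phosphatidylcholine synthesis, was not called (-0.12, adjusted p = 0.592).

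Of 12 genes of surfactant protein processing and lamellar body traffic, 6 were called higher and 0 lower, but 2 higher and 1 lower after median-of-ratios scaling, where 14.6% of all genes were called higher and 16.0% lower. Rab27a, a small GTPase of lysosome-related organelles, was at 18.7 and 16.1 in lung and at 4.22 or less elsewhere. Rab3d was at 15.4 and 17.3 in lung and at 6.98 or less elsewhere. Cathepsin H (Ctsh), which like napsin A acts on surfactant protein B, was called by 1.20, and the difference was 0.04 after median-of-ratios scaling. Of 8 genes of surfactant clearance, 6 were called higher (40.7% of all genes) and 4 after that scaling (14.6%), among them the GM-CSF receptor genes Csf2ra (2.88) and Csf2rb (2.67) and Adgrf5 (4.92), a receptor that limits the surfactant pool. Marco was called by 1.65 with 6.60 and 1.59 in the lung libraries, and the call was lost without lung replicate 1, after median-of-ratios scaling and after quantile normalization.

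**Figure D5:**
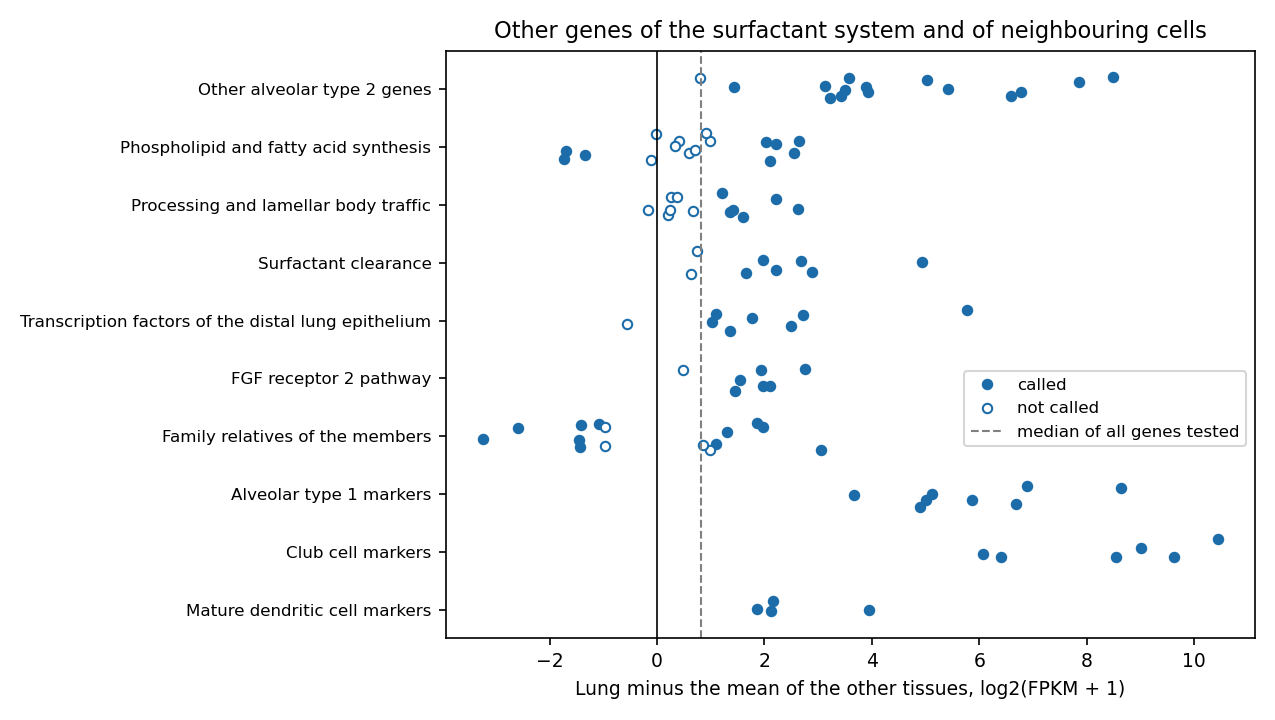
Lung minus the mean of the other tissues, log2(FPKM + 1), for the genes of each list, filled where called, with a dashed line at the median of all genes tested (0.82). Other type 2 genes, type 1 and club cell markers lie mostly to the right, and the phospholipid genes lie on either side of the line.

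The markers of other lung epithelial cells moved with the members. All 8 alveolar type 1 markers were called higher in lung, against 40.7% of all genes, with a summed FPKM between 1970 and 2307 in lung and between 13.1 and 77.6 elsewhere. All 6 club cell markers were called higher, with a sum between 49840 and 64726 in lung, between 471 and 522 in liver, where Cyp2f2 alone was at 458 and 405, and between 22.3 and 61.0 in kidney and small intestine. Rtkn2 and Bpifa1 passed the filter through lung alone. Both counts were the same after median-of-ratios scaling, against 14.6% of all genes. How much of each member's lung level came from cells other than type 2 cells was not tested.

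The genes whose levels lay closest to each member's over the 8 libraries were found by Euclidean distance on the log2(FPKM + 1) scale. For Sftpa1 and Sftpb the nearest was Scgb3a2 (distances 0.90 and 1.49), followed by Ager, a receptor of type 1 cells. Sftpd lay nearest to Cxcl15 (0.83) and Sftpc nearest to Cbr2 (4.42), a carbonyl reductase, with Scgb1a1 next.

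Lamp3 lay nearest to Actc1 (0.37), the cardiac actin, which was at a mean FPKM of 85.7 in lung, and Lpcat1 to Mfap2 (0.77). Etv5 lay nearest to Syde1 (0.44), Abca3 to Snx8 (0.89) and Slc34a2 to Tppp3 (1.90). Napsa was nearest to Ldhb (1.96), a lactate dehydrogenase subunit with a mean of 93.5 in lung and 658 in kidney.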

How the data were processed

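By the methods of the study and its processing notes, the authors selected reads by sample index with bbduk, mapped them with STAR 2.5.3a to Ensembl release 75 of GRCm38 and deposited FPKM values from the DESeq2 fpkm function. The counter, its use of strand and its handling of reads with several positions are not given in the sources used here.

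Here, FPKM multiplied by the merged exon length in GENCODE M21, to which 51844 symbols (99.3%) matched once, and by a depth per library found from the steps between low values, gave reads per gene. Floors are 3 reads and cover counting error only. Values were transformed to log2(FPKM + 1), limma 3.58.1 (eBayes with a trend) in R 4.3.3 was run on the 16328 genes whose FPKM reached 1 in 2 libraries. Python 3.11.15 with pandas 2.3.3 and matplotlib 3.10.9 gave the tables and plots. The limma step was tested on simulated data.

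The members and lists were chosen with earlier results of these data known. The genes named were drawn from the members, the listed genes and, for each member, the 2 nearest genes. Genes sharing exons with a member and the intestinal and kidney lists were added after values were seen. Alternatives changed the pseudocount, filter, scaling, trend, block, test and libraries.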

Additional observations from a re-analysis of the deposited data

How the results depend on the processing

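The members' counts for lung, 10, 9, 10 and 10 against the mean of the others, kidney, liver and small intestine, moved by at most 1 in the alternatives run, through Abca3. Of the 40 differences of single members from lung, Abca3 against kidney turned to 0.34 with the same summed FPKM and to 0.51 without kidney replicate 1 (-0.65 without kidney replicate 2). Kidney against liver, with 3 members called, gave 6 with a pseudocount of 0.1, 6 with median-of-ratios scaling and 5 with limma-voom on recovered reads, each with 3 higher and the added calls lower. Of all genes, 6.90% were called lower as deposited and 8.94%, 10.6% and 9.12% in these settings. It gave 2 to 5 when 1 library was left out. Small intestine against liver, with 3, gave 5 with a pseudocount of 0.1, 6 with median-of-ratios scaling, 6 with quantile normalization and 5 with limma-voom, each with 1 higher, while the share of all genes called lower went from 7.89% to 9.96%, 14.0%, 13.1% and 9.54%. It gave 0 to 3 when 1 library was left out, 0 without liver replicate 1. The cause was not tested. Without mitochondrial genes the members' share of the summed FPKM was 3.79% in lung, 0.133% in kidney, 0.00575% in liver and 0.00563% in small intestine. The small intestine share was 0.00529% without replicate 1 of that tissue and 0.00204% without replicate 2. With a pseudocount of 0.1 the members' median absolute log2 difference between replicates was 0.874 in kidney, 0.329 in liver and 0.443 in small intestine. These values were not set beside those of all genes. Over all genes, lung against the mean of the others gave 6652 higher and 1349 lower as deposited, 2387 and 2616 with median-of-ratios scaling and 2549 and 2551 with quantile normalization. Where a library is left out, the lone library of its tissue is assumed to vary like the other tissues.

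Whether a replicate number marks the same mouse in different tissues is not given in the sources used here. The data gave no sign of pairing by number, with correlations of replicate differences between tissues from -0.217 to 0.0528. With the replicate block, the members' counts against the mean of the others, kidney, liver and small intestine were 10, 9, 10 and 10, those of the other 3 comparisons 3, 4 and 3, and 6658 genes were called higher and 1351 lower in lung.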

Other observations

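Several relatives of the members were highest in a tissue other than lung. Slc34a1, the phosphate cotransporter of the kidney proximal tubule and a relative of Slc34a2, was at 987 and 655 in kidney and at 2.85 or less in every other library. Slc34a3 was at 23.9 and 17.9 in kidney and at 0.899 or less elsewhere. Among the soluble collectins, which share their fold with Sftpa1 and Sftpd, Mbl2 had liver values of 241 and 297 with 0.744 and 0.439 for lung, and Mbl1 had liver values of 80.2 and 98.6 with 1.57 and 1.28 for lung. Colec12, a membrane-bound collectin, was highest in lung, at 31.3 and 35.9, with 8.01 and 8.63 in liver.

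Lpcat3, an acyltransferase with a preference for polyunsaturated chains, was at 65.8 and 80.7 in small intestine against 18.1 and 17.9 in lung, the reverse of Lpcat1. Psap, the saposin precursor and a relative of Sftpb, was at 389 in both lung libraries and at 486 and 391 in kidney. Ren1, an aspartic protease like Napsa, was at 21.8 and 18.1 in kidney and at 0.0618 or less in the other libraries. Of 15 such relatives, 5 were called higher in lung, 6 lower and 4 neither way, where 40.7% of all genes tested were called higher and 8.26% lower. After median-of-ratios scaling 2 were called higher and 8 lower, against 14.6% and 16.0% of all genes.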
